A study of Homo sapiens with 4 samples.

Results

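TCEAL9 and its relatives of the TCEAL and BEX gene family were followed in Baz2B-KO cells and in the parental Hap1 control, to ask whether the rise of TCEAL9 in Baz2B-KO was shared by the rest of the family. The set was chosen by the log2 intensities of TCEAL9, whose rise in these same arrays was known, and the relatives TCEAL1, TCEAL3, TCEAL4, TCEAL7, TCEAL8, BEX1, BEX2, BEX3 and BEX4 were listed by name. Of the 10 listed genes, 8 have a probe set in the annotation used here, 1 each, among 14884 named genes. BEX1 and BEX4 were not analysed here. Hap1 cells carry most chromosomes in a single copy and descend from the leukaemia line KBM-7. Baz2B-KO is a purchased derivative of Hap1, 1 edited line with a short CRISPR-Cas9 deletion in a coding exon of BAZ2B. Total RNA of Baz2B-KO (2 arrays) and of the Hap1 parental control (2 arrays) was hybridised to Affymetrix Human Gene 2.0 ST arrays, with both lines grown in the same serum-containing medium and no further treatment. With 1 edited and 1 parental line, an effect of the BAZ2B deletion and any other difference between the lines cannot be told apart. Whether the 2 arrays of a line stem from separate cultures is not given in the sources used here, so p-values measure the spread between arrays, which may be technical.

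The TCEAL and BEX genes encode small, charged proteins and sit close together on the long arm of the X chromosome of placental mammals. TCEAL proteins take their name from their likeness to TFIIS, the elongation factor that restarts arrested RNA polymerase II, and BEX genes were named for their expression in the brain. BEX3 is known as a partner of the p75 neurotrophin receptor in signals for cell death.

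Values are log2 intensities after RMA, a normalization that makes the arrays alike and gives 1 value per probe set and array. The array medians lay between 3.53 and 3.55. A probe set was tested with limma where it was named and its intensity was above 3.5 in at least 2 arrays. In all, 11235 probe sets were tested, with Benjamini-Hochberg adjustment over all of them and a threshold of 0.05. Of these, 75 were called, 31 higher and 44 lower in Baz2B-KO. Correlations between arrays were 0.992 for the Baz2B-KO pair, 0.989 for the control pair and 0.983 to 0.987 across the lines. BAZ2B itself has 0 probe sets named here, so the edited gene was not analysed here. Without control replicate 1 or without control replicate 2 no probe set passed the adjusted test in limma (935 and 1419 at an unadjusted p under 0.05).

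TCEAL9 (probe set 17105706), once called WBP5 for a protein that binds WW domains, gave the set its name. It had 7.36 and 7.16 in the Baz2B-KO arrays, against 5.17 and 5.07 in the control arrays. Both Baz2B-KO arrays lay far above both controls, and the closest pair across the lines was 1.99 apart. The means were 7.26 ± 0.142 in Baz2B-KO and 5.12 ± 0.071 in the control (SD, n = 2 each), a log2 fold change of 2.14 (standard error 0.121), or 4.41-fold. It ranked number 1 among the tested probe sets by the size of the rise. These values chose the gene, so they are given as a description and with no test. The log2 fold change stayed between 2.04 and 2.24 when each array was left out in turn. In bulk RNA of this kind, more cells with the transcript and more transcript per cell cannot be told apart.

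TCEAL8 (probe set 17112956), a little-studied relative, lay on the other side of 0. It had 3.40 and 3.03 in the Baz2B-KO arrays, against 4.42 and 4.03 in the control arrays. Both Baz2B-KO arrays were below both controls, with 0.62 between the closest pair, and in either line the array numbered 1 was the higher. The gap between the 2 arrays of a line was 0.37 in Baz2B-KO and 0.40 in the control, the widest among the 8 genes in either line. The log2 fold change was -1.01 (standard error 0.177, 95% interval -1.42 to -0.59), a 2.01-fold lower mean, and it missed the threshold with an adjusted p of 0.077 in limma. Both Baz2B-KO arrays lay under the intensity limit, where RMA shrinks differences. TCEAL8 entered the test through the control arrays alone, and a probe set that enters in this way has to be lower in the other line. Its adjusted p ranged between 0.032 and 0.39 over 13 other settings of the analysis. It passed in 2 of them, with all arrays set to the same median (adjusted p = 0.032 in limma) and with the replicate number as a block (adjusted p = 0.034 in limma). With no intensity filter the adjusted p was 0.154 in limma.

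**Figure D1:**
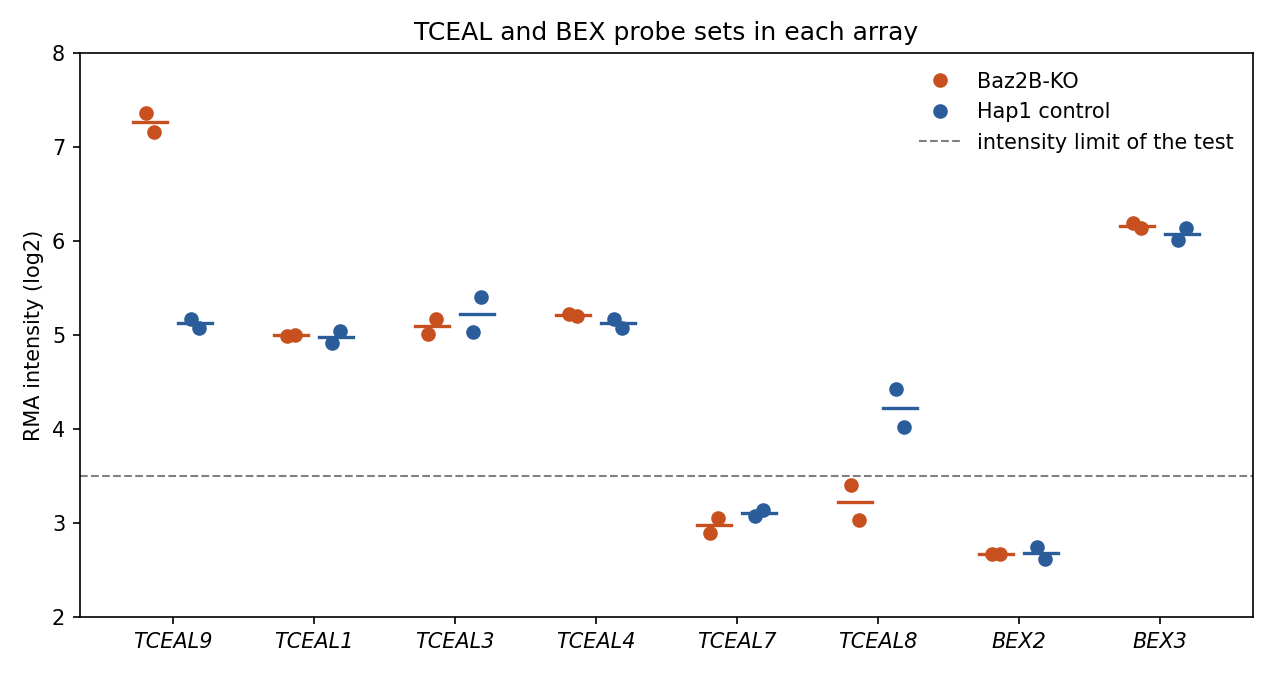
Log2 RMA intensity (vertical axis) of the probe set of each of the 8 measured TCEAL and BEX genes (horizontal axis) in the 2 Baz2B-KO arrays (orange, left of each pair) and the 2 Hap1 control arrays (blue, right). Points are arrays, short lines are means of n = 2 and the dashed line is the intensity limit of 3.5. TCEAL9 stands at 7.36 and 7.16 in Baz2B-KO, against 5.17 and 5.07 in the control, TCEAL8 is lower in both Baz2B-KO arrays, and the other pairs lie close together.

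The windows before the annotated starts of TCEAL9 and TCEAL8 are shown because these 2 measured genes had the largest differences and share a stretch of sequence. The differences had opposite signs, but TCEAL8 was not called and entered the test through the control arrays alone. Each window runs from 250 bases before to 50 bases after the start, 5′ to 3′ on the strand of the gene, and comes from RefSeq for GRCh38.p14. The window of TCEAL9 is chrX:103356256-103356555 on the plus strand and that of TCEAL8 is chrX:103255106-103255405 on the minus strand. Capitals mark the hexamer CACGTG or, in TCEAL9, the hexamer at the same place. CACGTG is a form of the E-box that basic helix-loop-helix factors such as USF and MYC with MAX are known to bind. Below, E-box stands for CACGTG alone, and the CATGTG of TCEAL9 is called a variant of it.
TCEAL9: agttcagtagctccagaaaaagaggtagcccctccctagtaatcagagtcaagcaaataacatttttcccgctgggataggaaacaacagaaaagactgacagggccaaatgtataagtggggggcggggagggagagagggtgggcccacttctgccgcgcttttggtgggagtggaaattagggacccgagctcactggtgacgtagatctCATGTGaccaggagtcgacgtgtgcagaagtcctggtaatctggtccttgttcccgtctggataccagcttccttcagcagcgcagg
TCEAL8: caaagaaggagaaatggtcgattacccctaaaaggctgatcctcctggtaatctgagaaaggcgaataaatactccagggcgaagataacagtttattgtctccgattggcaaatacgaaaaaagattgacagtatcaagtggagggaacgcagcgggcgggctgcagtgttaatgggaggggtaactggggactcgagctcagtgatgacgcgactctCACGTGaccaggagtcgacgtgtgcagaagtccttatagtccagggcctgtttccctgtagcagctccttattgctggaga

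The longest run of bases that the 2 windows share is 31 bases long, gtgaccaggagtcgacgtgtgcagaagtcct, and it begins inside the hexamer. Of the 35116 windows of this kind in the RefSeq table, 3 hold that run on either strand, and the window of LOC124905204, also on chromosome X, is the other one besides TCEAL9 and TCEAL8. Over 40 bases around the hexamer, 34 are the same in both genes. Counted from 1 at the 5′ end of the 40 bases, with the base of TCEAL8 first, the 6 differences are A2G, C8T, G9A, A10G, C11A and C17T. The last of them lies in the hexamer, which reads CACGTG in TCEAL8 and CATGTG in TCEAL9. The 40 bases of TCEAL9 (chrX:103356455-103356494) and TCEAL8 (chrX:103255161-103255200) can be set beside those of the other listed genes, which are shown because they carry the same E-box.
TCEAL1, chrX:103628905-103628944, strand +: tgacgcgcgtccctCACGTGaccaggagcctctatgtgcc
TCEAL3, chrX:103607869-103607908, strand +: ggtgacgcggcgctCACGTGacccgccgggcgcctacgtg
TCEAL4, chrX:103585491-103585530, strand +: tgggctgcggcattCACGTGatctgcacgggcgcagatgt
BEX1, chrX:103064193-103064232, strand -: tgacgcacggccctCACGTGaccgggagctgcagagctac
BEX2, chrX:103310984-103311023, strand -: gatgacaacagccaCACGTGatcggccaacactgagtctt
BEX3, chrX:103376477-103376516, strand +: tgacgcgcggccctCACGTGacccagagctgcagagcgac
BEX4, chrX:103215075-103215114, strand +: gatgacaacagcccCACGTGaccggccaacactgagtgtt
These share 16 to 24 of the 40 bases with TCEAL9, and their longest run in common with its window is 7 to 11 bases.

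The letters CACGTG, which read the same on both strands, occur in a window of 8 of the 9 listed genes that have one in the table, in 9 of 13 windows, while 7.26% of all 35116 windows hold them. TCEAL9 is the listed gene without them, and TCEAL7 has no window here. CATGTG, or CACATG on the other strand, occurs in 1 of the 13 windows, that of TCEAL9, and in 11.1% of all windows. It was read from the window of TCEAL9, so its presence there was fixed, and 1 of 13 is near the share of all windows. The E-box lies between 3 and 80 bases before the annotated start in its 9 windows, and the CATGTG of TCEAL9 37 bases before it. The windows of BEX4 overlap each other, and so do those of TCEAL1 and, in part, those of BEX3. Since the genes are relatives and windows overlap, these matches are not independent, and an excess over all windows was not tested. TATAAA, or TTTATA, was found in 0 of the 13 windows (11.5% of all windows), and the GC box GGGCGG, or CCGCCC, in 9 of them (45.0% of all windows). CCAAT, or ATTGG, stood in the windows of TCEAL8, BEX1 and BEX3 (34.6% of all windows). The window of TCEAL9 holds 10 CpG sites, that of TCEAL8 14, and the 13 windows range between 5 and 32, with a median of 14 over all windows. The E-box was looked for after the windows had been read. A match is a match of letters and does not show that a factor binds there, and no binding was measured in this study.

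**Figure D2:**
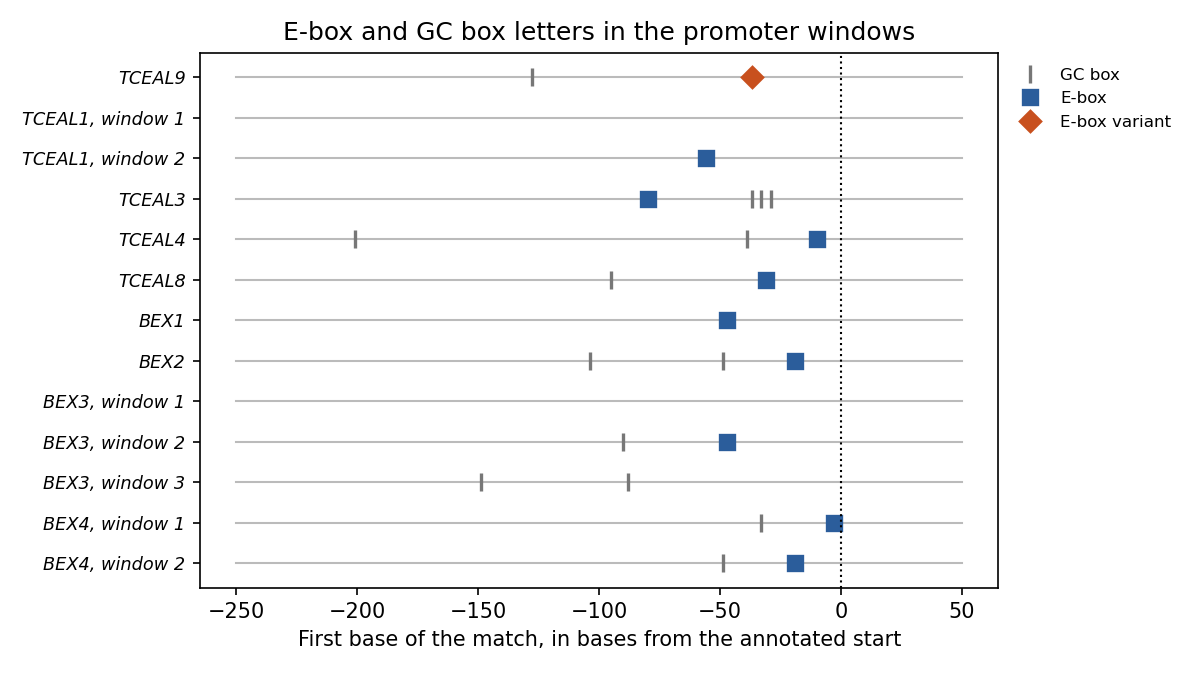
Place of the E-box (blue squares), the E-box variant of TCEAL9 (orange diamond) and GC boxes (grey strokes) in the 13 promoter windows of 9 listed genes (rows), as bases from the annotated start (horizontal axis, dotted line at the start). The E-box lies 3 to 80 bases before the start in 8 genes, and the variant 37 bases before that of TCEAL9.

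Of the 5 relatives tested, limma called 0 higher and 0 lower. Beside them, 0.276% of all tested probe sets were called higher and 0.392% lower (0.668% in either direction). A count of 0 among 5 is near the share called. At an unadjusted p under 0.05, 1 of the 5 was found, TCEAL8, beside 9.85% of all tested probe sets. The median log2 fold change of the 5 was 0.02, and that of all tested probe sets also 0.02. For the 4 tested relatives other than TCEAL8 the log2 fold changes lay between -0.13 and 0.09, and their 95% intervals together between -0.48 and 0.35. Changes of the size seen for TCEAL9 lie outside these intervals, whereas small changes in either direction lie within them.

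Among the TCEAL genes, TCEAL1 (probe set 17105757), which encodes a nuclear phosphoprotein that modulates transcription, had 4.994 and 4.996 in Baz2B-KO, against 4.91 and 5.04 in the control. Both Baz2B-KO values fell between the 2 controls. The log2 fold change of TCEAL1 was 0.02, with a standard error of 0.112 (adjusted p = 0.984 in limma). TCEAL3 (probe set 17105747), which has close paralogs in TCEAL5 and TCEAL6 that may share probes with it, had 5.01 and 5.18 in Baz2B-KO, against 5.03 and 5.41 in the control. The groups overlapped, and the 2 controls were further apart than any pair across the lines except 1. The log2 fold change of TCEAL3 was -0.13, with a standard error of 0.151 (adjusted p = 0.877 in limma). Its sign turned without control replicate 2, at 0.06, as did that of TCEAL1 without control replicate 1, at -0.05.

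TCEAL4 (probe set 17105733) had 5.23 and 5.20 in Baz2B-KO, against 5.17 and 5.07 in the control. Its groups did not overlap, but only 0.024 separated the closest pair, less than the 0.099 between the 2 controls. The log2 fold change of TCEAL4 was 0.09, with a standard error of 0.109 (adjusted p = 0.884 in limma). Groups that did not overlap were common on these arrays: in 37.8% of the tested probe sets the lines did not overlap, with Baz2B-KO wholly above the control in 21.9% and wholly below it in 15.9%. TCEAL7 (probe set 17105699), a gene known to be silenced in ovarian cancer, had 2.90 and 3.05 in Baz2B-KO, against 3.08 and 3.14 in the control. All 4 values lay under the intensity limit and it was not tested.

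Of the BEX genes, BEX3 (probe set 17105712) had 6.19 and 6.13 in Baz2B-KO, against 6.01 and 6.13 in the control. The lower Baz2B-KO array and the higher control had the same value, 6.13. The log2 fold change of BEX3 was 0.09 (95% interval -0.17 to 0.35, adjusted p = 0.884 in limma). BEX2 (probe set 17112969), a regulator of apoptosis studied in breast cancer cells, had 2.67 in both Baz2B-KO arrays, against 2.75 and 2.62 in the control. Its values lay under the limit in all 4 arrays and inside the range of the controls in Baz2B-KO. BEX1 and BEX2 are near-identical in part, and probes may be shared between them. Among the 7 relatives, 1 lay wholly above and 2 wholly below the control in Baz2B-KO, and 4 overlapped. Over all named probe sets, 37.0% did not overlap, 22.0% lay wholly above and 15.0% wholly below.

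**Figure D3:**
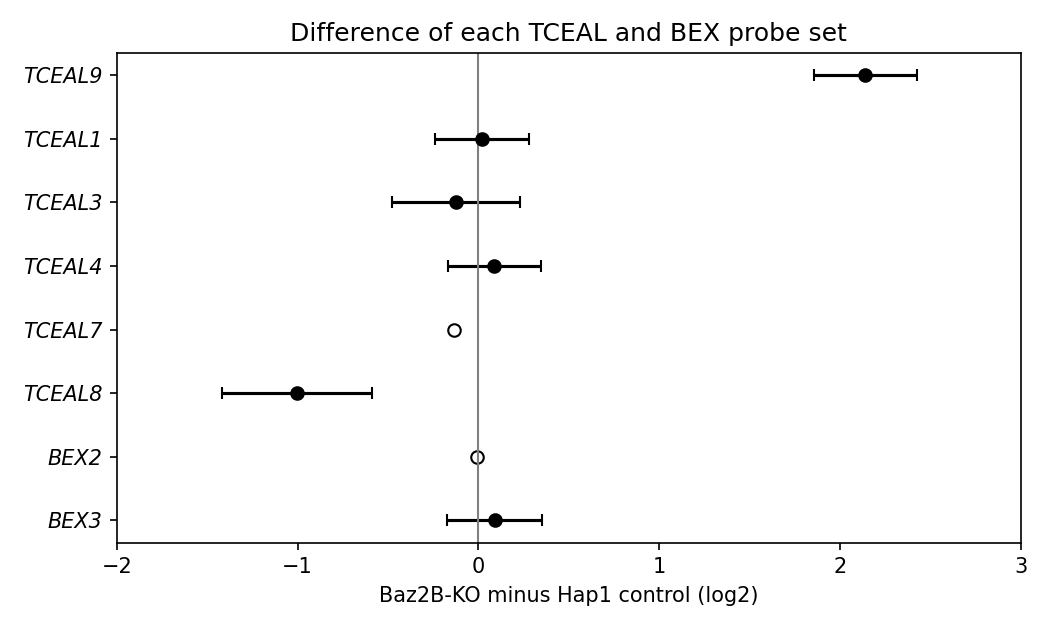
Baz2B-KO minus Hap1 control on the log2 scale (horizontal axis) for the 8 measured genes (rows), from 2 arrays of each line. Filled points are tested probe sets with 95% intervals from limma, and open points are probe sets under the intensity limit, which were not tested. TCEAL9 lies at 2.14, TCEAL8 at -1.01 and the others between -0.14 and 0.09.

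Further family members outside the list gave no rise of this size either. TCEAL2 (2.52 and 2.82 in Baz2B-KO, 2.84 and 3.13 in the control), TCEAL5 (3.31 and 3.38, against 3.43 and 3.41 in the control) and TCEAL6 (2.34 and 1.84, against 2.49 and 2.09 in the control) were under the intensity limit in all 4 arrays. Their log2 differences, Baz2B-KO minus control, were -0.31, -0.08 and -0.20, and they were not tested. BEX5 is named only by the part of the study's results table held here, which lists the probe sets of lowest p. BEX5 (probe set 17112855) had 4.80 and 4.67 in Baz2B-KO, against 5.01 and 4.97 in the control. Both Baz2B-KO arrays were below both controls, a difference of -0.26 on the log2 scale (95% interval -0.52 to 0.0026, adjusted p = 0.512 in limma). The same holds for ARMCX3 (probe set 17105524), which encodes a mitochondrial outer membrane protein with armadillo repeats and lies in the same region. ARMCX3 had 6.28 and 5.99 in Baz2B-KO and 6.55 and 6.54 in the control, a difference of -0.41 on the log2 scale (adjusted p = 0.354 in limma).

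In the RefSeq gene order of chromosome X, TCEAL9 stands between TCEAL7 and BEX3, the 2 genes just described as not tested and as not called. Of the 25 protein-coding genes on each side of TCEAL9, 50 in all, 24 had a probe set named by the platform annotation and 9 of these were above the intensity limit. Of these 9 genes, 0 passed the test in limma (1 at an unadjusted p under 0.05, TCEAL8), beside 0.668% of all tested probe sets called and 9.85% at an unadjusted p under 0.05, and a count of 0 among 9 is near the share called. Their median log2 fold change was 0.02. Of the 9, the 4 outside the list were GPRASP1, a sorting protein for G protein-coupled receptors, at a log2 fold change of 0.25, the chromatin protein gene MORF4L2 at -0.20, the thymosin gene TMSB15A at -0.09 and RADX, which acts at replication forks, at 0.07. Of the 9 ARMCX and GASP genes listed, GPRASP1 was tested under its platform name (adjusted p = 0.726 in limma) and ARMCX3 under the name in the study's table. The neighbourhood also holds 3 genes named only by the held part of that table, BEX5, ARMCX3 and RAB9B. RAB9B had a log2 fold change of 0.29 (95% interval 0.015 to 0.57, adjusted p = 0.485 in limma), and the 95% interval of ARMCX3 was -0.72 to -0.10, so that neither interval held 0. None of the 3 passed the adjusted test, and since the held part lists low p-values, they were not added to the counts.

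**Figure D4:**
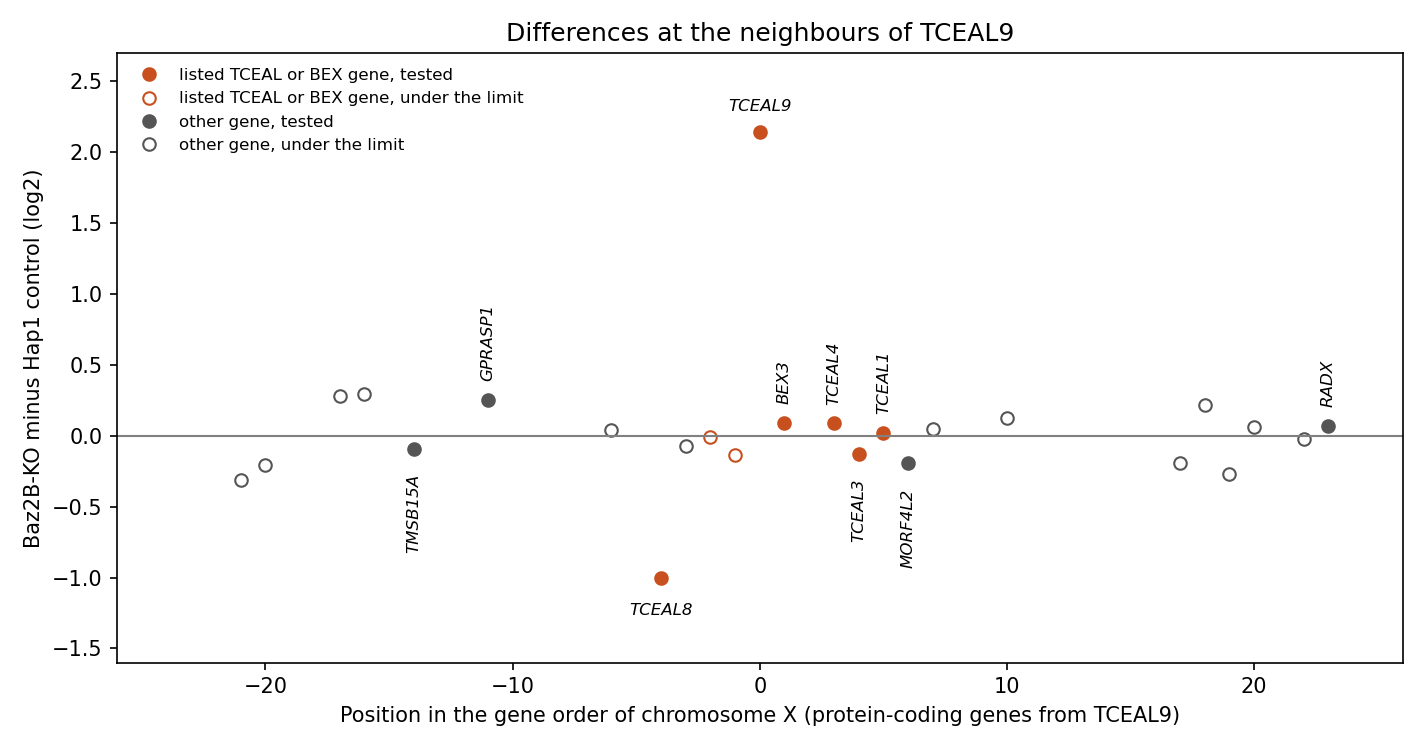
Baz2B-KO minus Hap1 control on the log2 scale (vertical axis) for the genes with a probe set named by the platform annotation among the 25 protein-coding genes on each side of TCEAL9, in the gene order of chromosome X (horizontal axis, in genes from TCEAL9). Orange points are listed TCEAL and BEX genes, grey points other genes, filled points were tested and open points were under the intensity limit. TCEAL9 at 2.14 and TCEAL8 at -1.01 stand away from the line at 0, and the other tested genes shown lie between -0.20 and 0.25. BEX5, ARMCX3 and RAB9B, named only by the study's table, are not shown.

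Over the whole chromosome X, 352 genes besides TCEAL9 were tested, of which 2 were higher and 4 lower in Baz2B-KO, 1.70% of them beside 0.687% of all 10473 tested genes. The higher genes were TNMD, which encodes the tendon protein tenomodulin (7.61 and 7.30 in Baz2B-KO, 5.68 and 5.83 in the control), and the lysophosphatidic acid receptor gene LPAR4 (4.82 and 4.42, against 3.23 and 3.25 in the control). The lower genes were TMEM35A, a chaperone of nicotinic receptors (3.61 and 3.29 in Baz2B-KO, 6.04 and 5.62 in the control), TMEM47, a junction protein gene (5.81 and 5.64, against 7.37 and 7.36 in the control), ARHGAP36 and the glial membrane protein gene GPM6B. Both controls of LPAR4 were under the intensity limit, so it entered the test through Baz2B-KO alone and had to be higher there. ARHGAP36 had a log2 fold change of -1.02 and GPM6B one of -0.81. None of the 6 lies among the 25 neighbours on either side of TCEAL9. The median log2 fold change of the 352 genes was 0.02. With all 27722 retained probe sets tested, named or not, 1 of these genes passed, and without control replicate 1 or without control replicate 2 none did (limma, as for all tested probe sets).

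The genes whose pattern was most like that of TCEAL9 lay on several chromosomes, the X chromosome among them. Likeness was measured over the 4 arrays as the root mean square distance to TCEAL9, after the control mean of each gene was subtracted. RHBDD1, an intramembrane protease gene on chromosome 2, was nearest, at 0.134 log2 units, and had 5.07 and 5.22 in Baz2B-KO, against 3.15 and 2.94 in the control. It was followed by TNMD on the X chromosome (0.331), the protocadherin gene PCDHB2 on chromosome 5 (0.450), the homeobox gene HOXD13 on chromosome 2 (0.472) and BMP3, a bone morphogenetic protein gene, on chromosome 4 (0.492). RHBDD1 and PCDHB2 were under the intensity limit in both controls and entered through Baz2B-KO alone. The measure rests on the same rise that chose TCEAL9, and 4 arrays of 2 lines cannot separate these patterns further.

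Genes of transcription elongation and of p75 neurotrophin receptor signalling were counted in the same fit. In that fit 0.687% of all tested genes were called, and 9.85% of all tested probe sets had an unadjusted p under 0.05 in limma. At that share a count of 0 is near the background for lists of this length. Of 41 listed genes of transcription elongation, 19 were tested and 0 passed in either direction (0 at an unadjusted p under 0.05 in limma). Their log2 fold changes lay between -0.22 and 0.20, with a median of 0.09 beside 0.02 for all tested genes. CDK9, the kinase of the elongation factor P-TEFb, had 7.54 and 7.57 in Baz2B-KO, against 7.42 and 7.51 in the control, a log2 fold change of 0.09. Its cyclins CCNT1 and CCNT2 had log2 fold changes of -0.04 and -0.13, and EAF1, a partner of the ELL elongation factors, one of 0.19. None of these 4 genes passed, with adjusted p between 0.699 and 0.967 in limma. TCEANC2, related to TFIIS by its domain, was the lowest of the list at -0.22 (adjusted p = 0.603 in limma). Of 30 listed genes of p75 neurotrophin receptor signalling, 14 were tested and 0 passed (0 at an unadjusted p under 0.05 in limma), with a median log2 fold change of 0.0035. BEX3, already counted among the relatives, is 1 of the 14. APAF1, the core of the apoptosome, and BCL2, which holds apoptosis back, had log2 fold changes of -0.14 and -0.16. BCL2L1, a relative of BCL2, had a log2 fold change of 0.14. NGFR, the p75 receptor gene itself, had 4.64 and 4.58 in Baz2B-KO, against 4.84 and 4.64 in the control, with a log2 fold change of -0.14 (adjusted p = 0.819 in limma). All of these counts leave out listed genes without a named probe set above the limit.

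Since many TCEAL and BEX genes are expressed in neurons, neuronal markers were counted as well. Of 20 listed, 11 had a named probe set, 7 were tested and 0 passed (1 at an unadjusted p under 0.05 in limma), with a median log2 fold change of -0.02, and these counts too are to be read beside 0.687% and 9.85%. CHGA, a granin of secretory granules, had a log2 fold change of 0.01, the growth cone gene GAP43 one of -0.38, the adhesion gene L1CAM one of 0.0022 and the microtubule gene MAP2 one of -0.10, with adjusted p between 0.504 and 0.998 in limma. UCHL1, a neuronal ubiquitin hydrolase, had 8.27 and 8.39 in Baz2B-KO, against 8.18 and 8.37 in the control. DCX, STMN2, NCAM1 and SYT1, which mark neurons, were under the intensity limit in all 4 arrays. Of 20 blood lineage markers, counted for the leukaemic origin of Hap1, 11 had a named probe set, 7 were tested and 0 passed (3 at an unadjusted p under 0.05 in limma, beside 9.85% of all tested probe sets). The median log2 fold change of the 7 was 0.20, beside 0.02 for all tested genes. The 3 were KIT, which was lower, and LYL1 and SPI1, genes of blood transcription factors, at log2 fold changes of 0.29 and 0.28 (adjusted p = 0.4964 and 0.5005 in limma). KIT, a receptor of blood progenitors, had 4.76 and 4.59 in Baz2B-KO, against 5.29 and 5.18 in the control (log2 fold change -0.56, adjusted p = 0.137 in limma). GATA2 and LMO2, genes of blood stem cell regulators, had log2 fold changes of 0.22 and 0.20 (adjusted p = 0.660 and 0.829 in limma), and the monocyte marker CD14 was under the limit in all 4 arrays. The erythroid factor gene GATA1 had 4.77 and 4.67 in Baz2B-KO, against 4.63 and 4.78 in the control. TAL1, the remaining tested marker, had a log2 fold change of -0.07 (adjusted p = 0.927 in limma). RBFOX3 and CD33, named only by the held part of the study's table, had log2 fold changes of -0.34 (adjusted p = 0.567 in limma) and 0.47 (adjusted p = 0.199 in limma). CD33 was under the intensity limit in both controls, so it entered the test through Baz2B-KO alone and had to be higher there.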

How the data were processed

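The authors took the scanned Affymetrix arrays through oligo and RMA, and the deposited table holds log2 intensities of 53617 probe sets in 4 arrays, with no filter. Near the background, RMA values move less than the RNA does, so changes of dim probe sets are understated. Arrays give no read depth, and their number limits precision. Versions of these tools are not given in the sources used here.

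Probe sets were named by the platform annotation, which pairs 16098 of them with 1 gene each. The rest, with any that it pairs with several genes, were left unnamed here. RefSeq (GRCh38.p14) gives all 16098 the same symbols. limma 3.58.1 in R 4.3.3 (lmFit and eBayes, Baz2B-KO minus Hap1 control, no covariates, Benjamini-Hochberg adjustment) was run on the 11235 named probe sets whose intensity passed 3.5 in 2 or more arrays. The limit and the linear model follow the study's methods. A gene that only the study's results table names took the prior of that fit, and its p was adjusted together with all tested probe sets. That table also holds the authors' fold changes and p-values, which were not used. A permutation test of these 4 arrays could not go below a two-sided p of 0.333. The fit was tested on simulated data.

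The members, gene lists and tests were chosen with earlier results of these data known. Named were all members, the list and neighbourhood genes that passed, up to 4 others per list in alphabetical order, and the 5 genes most like TCEAL9. A gene that this rule would name in the list of p75 signalling is not reported here. Outside the members the brightest probe set stood for a gene. TCEANC2, NGFR, UCHL1, the other neuronal genes under the limit, CD14, LYL1, SPI1, TAL1 and the genes named only by the study's table were singled out after their values were seen. Alternatives were other intensity filters, all retained probe sets, other variance models, a replicate block, each array left out, 2 scalings and averaged probe sets per gene. Promoter windows came from the RefSeq table, searched with Python 3.11.15, and figures were drawn with matplotlib 3.10.9.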

Additional observations from a re-analysis of the deposited data

How the results depend on the processing

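Of the 13 alternatives, the filters, variance models, replicate block and averaging could not move the log2 fold change of TCEAL9, which has 1 probe set. It was 2.14 with arrays at the same median and 2.13 with quantile normalization. With 1 array left out it lay between 2.04 and 2.24. In the 9 alternatives with all 4 arrays, 0 relatives were called higher. The count of relatives called lower, and with it that of the tested neighbours, was 1 instead of 0, TCEAL8, with arrays at the same median and with the replicate block (TCEAL8 adjusted p = 0.034 in limma). Same-numbered arrays of the lines deviated together with a correlation of 0.158 over the tested probe sets. In the column names of the study's results table, same-numbered arrays of the lines also share a further mark that no source used here explains. The labels do not say that a number marks a shared culture or day, so the numbers were not taken as pairs. With the replicate block, 38 probe sets were called, 13 higher and 25 lower. With no intensity filter these counts were 41, 16 and 25, and with all retained probe sets 26, 4 and 22, with 1 gene of chromosome X. With 1 array left out, between 0 and 42 probe sets were called, 0 to 15 higher and 0 to 27 lower, and between 0 and 5 genes of chromosome X. These fits have fewer degrees of freedom, with the lone array of a line assumed to vary like the other line, and both counts of 0 came without a control array (lowest adjusted p 0.054 and 0.056 in limma). With 1 array left out, the log2 fold change lay between -0.046 and 0.086 for TCEAL1 and between -0.32 and 0.064 for TCEAL3, and it turned sign without control replicate 1 for TCEAL1 and without control replicate 2 for TCEAL3. The counts of the other gene lists stayed at 0 in the 9 alternatives with all 4 arrays, and for lists of this length 0 is near the background. TCEAL2, TCEAL5 and TCEAL6 were under the limit in all 4 arrays, so their count was fixed wherever an intensity limit applied. TCEAL7 and BEX2 were tested with no intensity filter only (adjusted p = 0.827 and 0.994 in limma). With 2 arrays per line, small changes stay undetected.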
